A study of Mus musculus with 9 samples.

Results

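The elements described here are gene-start regulatory elements that were counted as whole peaks. They were taken from a table of peaks called by dREG, a method that finds active promoters and enhancers from the paired, divergent signal of run-on sequencing. The members are the rows whose location is a transcription start site and whose strand entry is 0, so that reads of both strands were summed. This gave 4685 of the 42114 elements in the table. The other gene-start peaks, 4244 in number, had been split by strand into 8488 elements. The members thus held 52.5% of the 8929 gene-start peaks. Of the members, 3557 named 1 gene and 1128 named 2 or more genes. The listed starts inside the peak pointed in both directions in 803 members and in 1 direction in 3852, and no listed start lay inside the remaining 30. The peaks were 401 to 14501 bases wide, with a median of 3001.

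Transcription was measured by PRO-seq, a nuclear run-on assay that maps engaged RNA polymerase on each strand, in 9 libraries of mouse cells. G1E is an immature erythroid line made from embryonic stem cells whose Gata1 gene was disrupted. G1E-ER4 derives from it and expresses a GATA1 fusion with the estrogen receptor's hormone-binding domain; adding estradiol makes the fusion active and starts maturation. The 4 groups were G1E without treatment (2 libraries), G1E-ER4 without estradiol (0 h, 3 libraries), and G1E-ER4 after 13 h (2 libraries) or 24 h (2 libraries) in 100 nM estradiol. All 9 were grown with erythropoietin and with medium conditioned by cells that secrete kit ligand, and all carry the same disrupted Gata1. Each line goes back to a single derivation. Differences between G1E and G1E-ER4 at 0 h therefore cannot be told apart from differences between 2 cell lines.

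At most mammalian promoters polymerase initiates in both directions. Near the start of the gene engaged polymerase pauses, and some of it is released into the gene body. The opposite strand gives an unstable upstream transcript or, at a head-to-head promoter, another gene. GATA1 is a zinc finger transcription factor without which red cells do not mature. It activates genes of haem synthesis, globins and the red cell membrane and turns down genes of the progenitor state. A whole-peak count holds initiation and pausing on both strands, so it can be set beside the count over the gene body, where polymerase elongates. The part and strand of a gene counted as body are not stated, so element and body counts may share reads.

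Sequences from the RefSeq promoter table (GRCm38.p6) are shown for members on which the results turn. The elements themselves were called on mm9, and no coordinate was carried from one build to the other. The first set holds the 250 bases before the listed start of the genes that have an entry there among the largest rises (Csf2rb2 and Slc38a5) and the 3 largest falls with an entry at 24 h. Capitals mark every match, on either strand, to AGATAA or its variants AGATAG, also TGATAA and finally TGATAG, the core that GATA factors recognise. Csf2rb2 encodes a receptor subunit for interleukin 3, Slc38a5 an amino acid transporter, Olfr1509 an olfactory receptor, Clec4e a C-type lectin receptor and Mmp27 a matrix metalloproteinase.
Csf2rb2 (chr15:78305722-78305971, minus strand): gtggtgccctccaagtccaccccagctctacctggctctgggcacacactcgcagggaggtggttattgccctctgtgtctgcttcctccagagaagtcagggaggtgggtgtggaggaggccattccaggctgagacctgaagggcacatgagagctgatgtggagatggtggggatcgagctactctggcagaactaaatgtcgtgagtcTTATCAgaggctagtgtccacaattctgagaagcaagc
Slc38a5 (chrX:8271131-8271380, plus strand): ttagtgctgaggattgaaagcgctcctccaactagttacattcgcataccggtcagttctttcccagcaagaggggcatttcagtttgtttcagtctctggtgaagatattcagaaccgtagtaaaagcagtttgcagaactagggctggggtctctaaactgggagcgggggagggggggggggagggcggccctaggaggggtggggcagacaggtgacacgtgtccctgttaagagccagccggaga
Olfr1509 (chr14:52450143-52450392, plus strand): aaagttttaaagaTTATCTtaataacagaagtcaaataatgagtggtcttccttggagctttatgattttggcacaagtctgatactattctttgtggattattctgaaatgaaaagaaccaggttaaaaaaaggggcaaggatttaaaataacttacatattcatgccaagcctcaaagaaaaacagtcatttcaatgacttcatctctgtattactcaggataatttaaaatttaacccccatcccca
Clec4e (chr6:123289872-123290121, minus strand): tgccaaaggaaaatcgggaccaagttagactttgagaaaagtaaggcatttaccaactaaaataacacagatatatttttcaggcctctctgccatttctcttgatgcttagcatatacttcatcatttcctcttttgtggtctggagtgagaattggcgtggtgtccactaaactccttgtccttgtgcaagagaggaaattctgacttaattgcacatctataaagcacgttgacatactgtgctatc
Mmp27 (chr9:7571146-7571395, plus strand): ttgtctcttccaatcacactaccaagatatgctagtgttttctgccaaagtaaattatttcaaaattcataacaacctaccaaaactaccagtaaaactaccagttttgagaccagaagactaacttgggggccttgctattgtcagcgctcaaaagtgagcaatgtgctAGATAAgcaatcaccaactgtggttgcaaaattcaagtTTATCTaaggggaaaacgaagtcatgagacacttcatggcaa
Csf2rb2 had 1 match in this window, Slc38a5 had 0, Olfr1509 had 1, Clec4e had 0 and Mmp27 had 2. The Csf2rb2 match began 38 bases before the start and those of Mmp27 80 and 42 bases before it. A match says only that these letters stand in the window.

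The second set holds the whole stretch between the 2 starts of head-to-head pairs whose gene bodies moved in opposite directions after estradiol. Each is read on the plus strand, so the minus-strand gene starts just left of it and the plus-strand gene just right of it. Capitals mark CG dinucleotides, which are dense at CpG island promoters.
Nop16 to Higd2a (chr13:54590075-54590230, plus strand): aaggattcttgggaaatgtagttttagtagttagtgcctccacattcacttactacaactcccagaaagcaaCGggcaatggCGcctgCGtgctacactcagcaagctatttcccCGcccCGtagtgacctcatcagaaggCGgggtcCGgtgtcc
Nop14 to Grk4 (chr5:34660149-34660378, plus strand): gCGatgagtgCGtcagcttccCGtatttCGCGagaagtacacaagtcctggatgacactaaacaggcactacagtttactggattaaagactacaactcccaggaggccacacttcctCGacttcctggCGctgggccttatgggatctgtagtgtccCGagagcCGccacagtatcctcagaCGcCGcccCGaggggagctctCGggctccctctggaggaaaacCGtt
Ccdc157 to Sf3a1 (chr11:4160294-4160353, plus strand): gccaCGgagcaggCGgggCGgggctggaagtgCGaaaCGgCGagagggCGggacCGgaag
Skp2 to Lmbrd2 (chr15:9140455-9140569, plus strand): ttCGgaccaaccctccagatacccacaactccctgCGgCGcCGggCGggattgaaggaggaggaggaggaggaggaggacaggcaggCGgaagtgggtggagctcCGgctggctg
These stretches were 156, 230, 60 and 115 bases long and held 7, 14, 8 and 7 CG dinucleotides, with GC contents of 52.6%, 56.5%, 75% and 67%.

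Over the 3601 RefSeq promoters matched to 2730 of the 3530 genes named by 1-gene members (250 bases before to 50 after the start), the median GC content was 61% and the median number of CG dinucleotides 21, against 52.7% and 7 over all 32851 promoters of the table. GATA cores stood in 19.6% of them and TATAAA in 6.25%, against 29.8% and 13.6% of all promoters. GGGCGG, the GC box bound by Sp1 family factors, stood in 63.8% against 35.7%. CCGGAAGT, an ETS core, stood in 7.55% against 3.89%. Both strands were searched, and CG dinucleotides overlap with GGGCGG and CCGGAAGT. The genes at strand-split starts had similar values (GC 60.3%, 20 CG dinucleotides, GATA cores in 19.6%). Members that fell by 1 or more on the log2 scale at 24 h had a median of 14 CG dinucleotides, GATA cores in 24.8% and the ETS core in 2.72%. For members that rose by as much the values were 21, 20.5% and 7.85%. These shares describe the sequences and were not tested.

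The element table held 15394427 to 59952454 reads per library and that of gene bodies from 37830789 to 139945759. Members took 28.5% to 30.8% of the element reads in G1E, 28.4% to 35.6% at 0 h, 37.6% to 39.0% at 13 h and 39.7% to 41.0% at 24 h. One element, over the ribosomal RNA gene Rn45s, took 5.07% to 17.4%. Without it the members held 33.4% to 34.5%, 34.4% to 38.8%, 40.7% to 41.4% and 41.8% to 43.3% in that order of groups, so their share of reads was above every untreated library in all 4 treated ones. Erythroid identity was read from the gene bodies of 7 marker genes. Their summed level was 295 to 495 CPM (reads scaled to a common library size) in the untreated libraries, 1139.6 to 1175 at 13 h and 2445 to 3047 at 24 h. Of these markers Hbb-b1 was at 0 in G1E. Mast cell markers summed to 30.5 to 85.1 CPM in the untreated libraries, 2.16 to 2.32 at 13 h and 0.805 to 0.991 at 24 h. Among them Mcpt8 was at 0 in every group, Fcer1a at 13 h and 24 h, and Ms4a2 at 24 h. The 6 megakaryocyte markers summed to 22.9 to 51.5 CPM over all libraries. Granulocyte and monocyte markers summed to at most 0.725 CPM, with Cebpa at 0, and lymphocyte markers to at most 1.62. The part of these other programmes in the results was not tested, and fewer cells of a type cannot be told apart from less RNA synthesis per cell. Nothing in the labels says that replicates were separate cultures, so p-values measure the spread between these libraries only.

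After estradiol, more members rose than fell. At 24 h against 0 h, 1828 of the 4659 members that passed the filter on low counts rose and 1099 fell (edgeR quasi-likelihood test, adjusted p under 0.05), which was 62.8% of them, against 52.2% of all elements tested (22.7% of which rose and 29.5% fell). The median change was 0.28 on the log2 scale over members and -0.18 over all elements. At 13 h, 1046 rose and 824 fell, or 40.1% against 33.8% of all elements (15.2% rose and 18.6% fell). From 13 h to 24 h, 465 rose and 315 fell, or 16.7% against 13.1% (5.28% rose and 7.82% fell). At 0 h against G1E, 477 were higher and 312 lower, or 16.9% against 19.3% (7.18% higher and 12.1% lower), and this comparison was the only one in which the share of members called was below that of all elements. The filter left out 26 members.

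**Figure D1:**
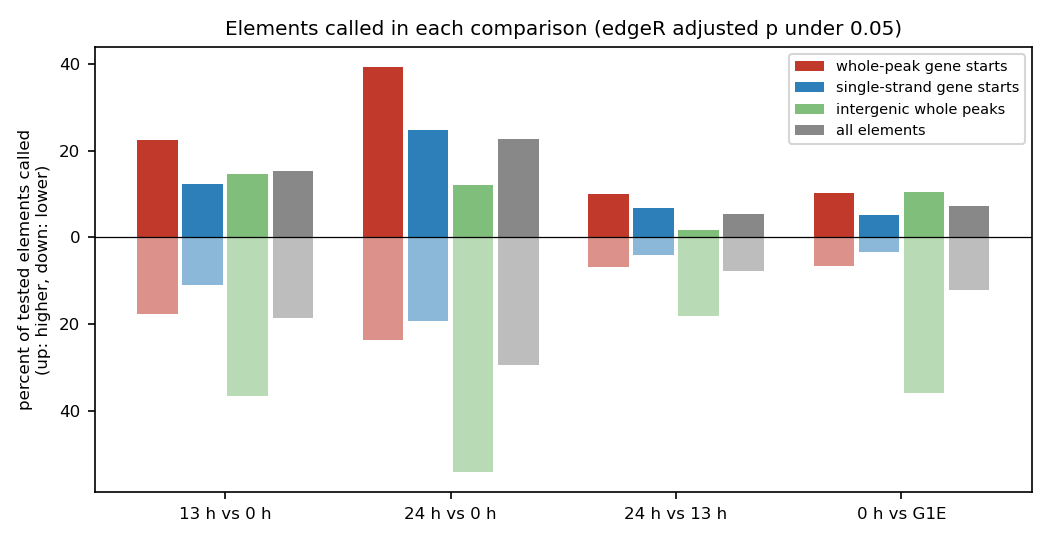
Percent of tested elements called higher (bars above 0) or lower (bars below 0) in each comparison, for whole-peak gene-start members, gene-start elements split by strand, intergenic whole peaks and all elements. At 24 h 39.2% of members were higher and 23.6% lower, while 12.1% of intergenic whole peaks were higher and 54.1% lower.

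The bar plot of called shares sets the members beside other classes. At 24 h, 24.8% of the 8314 single-strand gene-start elements rose and 19.2% fell, whereas 12.1% of the 4024 intergenic whole peaks rose and 54.1% fell. A split element counts only 1 strand of its peak, so its share called is not on the same footing. Among members with starts in both directions, 322 of 803 rose and 120 fell at 24 h. Among those with starts in 1 direction, 1496 of 3829 rose and 969 fell. The shares that rose, 40.1% and 39.1%, were close, while the shares that fell were 14.9% and 25.3%. These shares were not tested against each other. Scaling moved the split. With the library scaling taken from gene bodies, 1056 members rose and 460 fell at 13 h. At 24 h against 13 h the split turned, to 90 higher and 185 lower with gene-body scaling and 131 and 346 with total counts. Without 13 h replicate 1, 490 members fell at 13 h, and without 24 h replicate 2, 681 fell at 24 h. From 13 h to 24 h, 206 rose without 13 h replicate 1, 156 without 13 h replicate 2, 211 without 24 h replicate 1 and 82 without 24 h replicate 2, and 135 and 55 fell without 13 h replicate 2 and 24 h replicate 2.

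The largest rise at 24 h was at Slc52a3 (chr2:151821950-151829351, mm9), which encodes a riboflavin transporter. Its element held 0.0897 and 0.199 CPM in G1E, 0.134, 0.186 and 0.132 at 0 h, 93.7 and 83.2 at 13 h, and 213 and 133 at 24 h. All 5 untreated libraries were at or under 0.199 CPM and all 4 treated ones at or above 83.2. The change was 10.16 ± 0.33 (SE; adjusted p = 3.85e-10) on the log2 scale at 24 h and 9.19 at 13 h. Csf2rb2 (chr15:78132850-78138201) started from a measurable level and held 4.75 and 3.05 CPM in G1E, 5.46, 6.18 and 7.51 at 0 h, 456 and 379 at 13 h, and 969 and 1162 at 24 h, with no overlap between treated and untreated libraries. It rose by 7.38 ± 0.27 (SE; adjusted p = 1.20e-09) at 24 h. Ptk6, a non-receptor tyrosine kinase, rose by 8.10 and Slc38a5 by 7.37. Csf2rb, the neighbouring receptor gene shared by interleukin 3, interleukin 5 and GM-CSF signalling, rose by 5.05.

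Slc4a1, which encodes band 3, the main anion exchanger of the red cell membrane, rose late. Its element (chr11:102224550-102227451) held 1.68 and 0.331 CPM in G1E, 0.214, 0.373 and 0.416 at 0 h, 2.08 and 1.61 at 13 h, and 78.9 and 110.3 at 24 h. The 24 h libraries stood far above every other library, and the 13 h libraries lay close to 1 of the G1E libraries. The change was 2.43 ± 0.46 (SE; adjusted p = 0.00133) at 13 h and 8.11 ± 0.47 (SE; adjusted p = 9.11e-08) at 24 h, and 24 h exceeded 13 h by 5.68 ± 0.49 (SE; adjusted p = 8.74e-05). The neighbouring long non-coding RNA Bloodlinc, whose element lies at chr11:102235400-102238601, held 0.426 and 0 CPM in G1E, 0.455, 0.497 and 0.265 at 0 h, 7.42 and 3.91 at 13 h, and 70.4 and 74.6 at 24 h. It rose by 7.51 at 24 h. The element named for the adult beta-globin genes Hbb-b1 and Hbb-bs rose by 6.48 (adjusted p = 1.12e-06). Reads from these near-identical globin copies may have been shared between them.

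**Figure D2:**
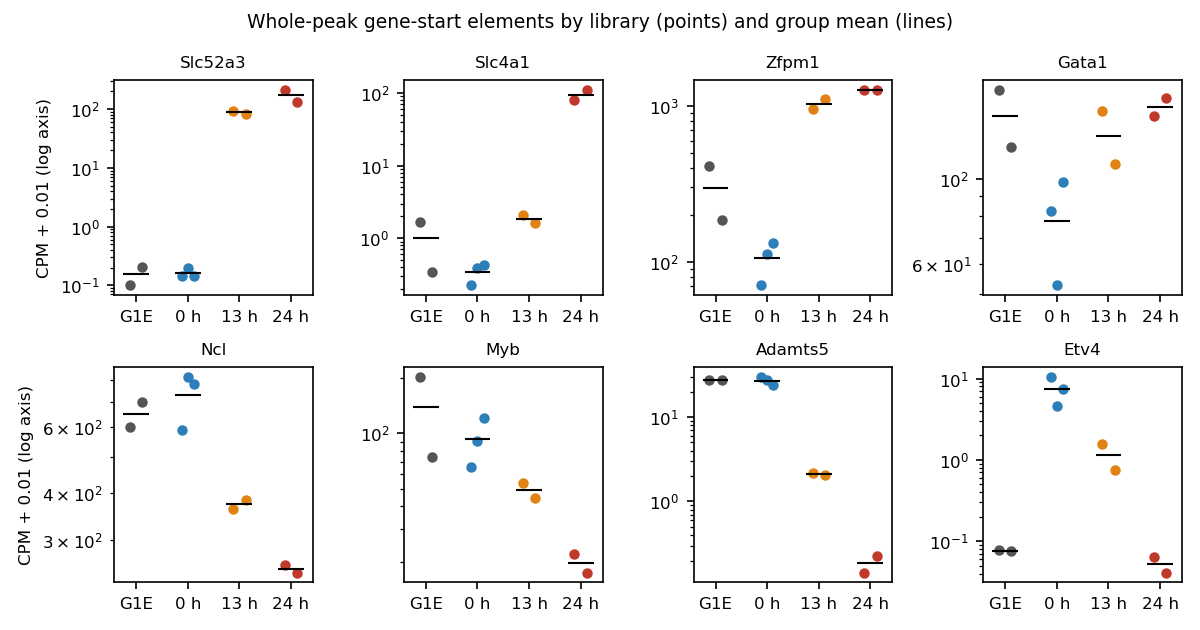
Level of 8 whole-peak gene-start elements in each library (points; CPM + 0.01 on a log axis, a separate range in each panel) with the group mean (line), for 2 G1E, 3 untreated G1E-ER4 (0 h), 2 13 h and 2 24 h libraries. Slc52a3 is at or above 83.2 CPM in all 4 treated libraries, Slc4a1 is high at 24 h only, and the Ncl element falls in steps from 590.2 to 815 CPM at 0 h to 246 and 257 at 24 h.

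Among the members that fell, several lost nearly all their signal. Adamts5, a protease of cartilage proteoglycans, held 27.7 and 27.3 CPM in G1E, 29.7, 27.1 and 24.1 at 0 h, 2.14 and 2.04 at 13 h, and 0.134 and 0.217 at 24 h at chr16:85897700-85902201. Its untreated libraries were alike and it changed by -7.25 ± 0.37 (SE; adjusted p = 1.68e-08). Etv4, an ETS factor, held 0.0673 and 0.0663 CPM in G1E, 10.4, 4.57 and 7.35 at 0 h, 1.56 and 0.743 at 13 h, and 0.0535 and 0.031 at 24 h. It was low in G1E and at 24 h and high at 0 h. Its change was -7.33 (adjusted p = 2.31e-06). Olfr1509 had 988 reads over the 0 h libraries and none at 24 h, which puts it at least 187-fold lower, taking 3 reads over the group as the floor. Il1rl1, the receptor of interleukin 33 and a marker of mast cells, changed by -6.53, and Cpa3, a mast cell carboxypeptidase, by -6.15. The summed gene-body level of the mast cell markers was lower at 24 h too, as given above, and its part in these changes was not tested. Clec4e changed by -7.68, Cyp11a1, which makes pregnenolone from cholesterol, by -6.60, and Mmp27 by -6.97. Few reads were left over the 24 h libraries, with 1 for Clec4e, 2 for Mmp27 and 3 for Etv4. The 95% counting intervals of these falls were 45.9- to 10173-fold, 38.6- to 1161-fold and 59.9- to 853-fold in that order.

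Regulators of the lineage moved over a narrower range. The Gata1 element (chrX:7542900-7546651) held 171 and 121 CPM in G1E, 82.3, 52.7 and 97.9 at 0 h, 149.9 and 109 at 13 h, and 145 and 162 at 24 h. The 0 h libraries were the lowest group. It rose by 0.99 ± 0.25 (SE; adjusted p = 0.00486) at 24 h. At 0 h it differed from G1E by -0.91 (adjusted p = 0.0202). That last difference was not called without G1E replicate 1 (adjusted p = 0.263) or 0 h replicate 2 (0.0588). Zfpm1, which encodes FOG1, the cofactor of GATA1, held 410.5 and 187 CPM in G1E, 70.6, 113 and 132 at 0 h, 955 and 1115 at 13 h, and 1271 and 1259 at 24 h. All treated libraries were above all untreated ones, and it rose by 3.30 ± 0.32 (SE; adjusted p = 8.13e-06) at 13 h and 3.59 ± 0.32 (SE; adjusted p = 1.82e-06) at 24 h. Bach1, a haem-sensing repressor, rose by 3.46. Runx1 rose by 0.91 (adjusted p = 0.00385). Myb, a progenitor factor, held 202 and 74 CPM in G1E, 65.5, 90.6 and 121 at 0 h, 53.2 and 44.5 at 13 h, and 22 and 17.4 at 24 h and changed by -2.23 ± 0.39 (SE; adjusted p = 6.58e-04) at 24 h. Lyl1, a relative of Tal1, changed by -2.63 (adjusted p = 1.78e-06). Tal1 itself, at -0.03, and Spi1, which encodes PU.1, at 0.50, were not called at 24 h.

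Lists of genes by function were read over their members at 24 h against 0 h, where 39.2% of all tested members rose and 23.6% fell with a median of 0.28. Many of the listed members name other genes too, and their count is then not that of the listed gene alone. The list of haem synthesis and mitochondrial iron had 9 of 12 members higher and 2 lower (median 1.38). Abcb10, a mitochondrial transporter needed for haem synthesis, rose by 4.68, Tmem14c, a porphyrinogen importer, by 2.54, and Fech, the last enzyme of the pathway, by 2.42. The element shared by Hectd3 and Urod, an enzyme of the pathway, rose by 1.93. Slc25a39, a mitochondrial glutathione carrier, went the other way with -1.72. That of the red cell membrane and cytoskeleton had 14 of 21 members higher and 1 lower (median 1.15). Dmtn (dematin) rose by 6.28 at 1 element and by 3.19 at another, shared with Fam160b2. Sptb (beta spectrin) rose by 3.11. Slc14a1, a urea transporter, was the member that fell, by 1.38 on the log2 scale.

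Autophagy and organelle clearance had 11 of 14 members higher and 0 lower (median 0.81). Wipi1, which acts early in autophagosome formation, held 9.51 and 6.1 CPM in G1E, 12.3, 7.36 and 9.93 at 0 h, 51.5 and 58.3 at 13 h, and 84.8 and 105 at 24 h and rose by 3.26 ± 0.25 (SE; adjusted p = 4.72e-07). Pink1, a kinase of mitophagy, rose by 2.38. For mitosis genes the counts were 6 of 14 members higher and 1 lower (median 0.44), with Tpx2, a spindle assembly factor, at 1.80 and the Bbs7 and Ccna2 element at 1.20. In the list of RNA polymerase II and general factors there were 7 of 14 members higher and 0 lower (median 0.53), among them Nelfa, a subunit of the pausing factor NELF, at 1.90. The respiratory chain had 11 of 24 members higher and 1 lower (median 0.42) and the proteasome 7 of 13 members higher and 1 lower (median 0.50). All these medians over members kept their sign when libraries were scaled by total counts or by gene bodies. Of the gene bodies of the autophagy list, 22 of 27 were higher and 0 lower (median 0.93), or 14 and 1 with total counts. Mitosis had 13 of 25 bodies higher and 1 lower (median 0.56), or 7 and 6 with total counts. Gene bodies of the polymerase list, the respiratory chain and the proteasome are given further below. With total counts 4 members of the polymerase list, 7 of the respiratory chain and 4 of the proteasome rose.

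Several lists had more members lower than higher. Ribosome assembly had 2 of 22 members higher and 12 lower (median -0.91), and cytosolic ribosomal proteins 0 of 11 members higher and 9 lower (median -1.62). Only 11 of the 58 listed ribosomal protein genes had a member. Members that named 1 gene and could be set beside its body numbered 7 for ribosome assembly and 2 for ribosomal proteins. The element of Ncl, which encodes the abundant nucleolar protein nucleolin, held 600.4 and 699 CPM in G1E, 590.2, 815 and 781 at 0 h, 364 and 383 at 13 h, and 257 and 246 at 24 h. Its groups did not overlap between untreated and treated libraries, and the change was -1.54 ± 0.22 (SE; adjusted p = 6.04e-05). The element over Idh3b and Nop56 (a core protein of the snoRNA particles that guide ribosomal RNA methylation) changed by -2.03, Polr1b, a subunit of RNA polymerase I, by -2.03, and Rpl38 by -2.76. DNA replication had 4 of 20 members higher and 11 lower (median -0.51). Its falling members included Cdt1, a licensing factor, at -2.34 and Uhrf1, which maintains DNA methylation, at -2.61, while Cdc6, another licensing factor, rose by 0.96. Chaperones had 3 of 16 members higher and 8 lower (median -0.46), among them Hsp90aa1 at -2.09. The mitochondrial ribosome was mixed, with 5 of 23 members higher and 5 lower (median -0.12), and so were erythroid transcription factors, with 8 of 18 members higher and 4 lower (median 0.30). Stem and progenitor regulators had 1 of 7 members higher and 3 lower (median 0.04), whose median turned to -0.07 with total counts. Splicing had 1 of 13 members higher and 1 lower (median 0.28), immediate early genes 1 of 5 members higher and 2 lower (median 0.48), and surface receptors and kinases 10 of 20 members higher and 5 lower (median 0.65). Pim1, a kinase induced by erythropoietin signalling, rose by 2.25 and Ier2 changed by -2.36.

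Between G1E and untreated G1E-ER4, a subset of members was on in one line and off in the other. Of the members called in this comparison, 531 differed by 1 or more on the log2 scale and 144 by 5 or more. Of the called members 31 had no read in G1E and 18 had none at 0 h. These sizes were counted for members only, so whether such differences are more common among members was not tested. Called at any size were 16.9% of members, 19.3% of all elements and 46.4% of intergenic whole peaks. Srxn1, which encodes sulfiredoxin, an antioxidant enzyme, held 0 and 0 CPM in G1E, 70, 71 and 54.3 at 0 h, 88.8 and 74.1 at 13 h, and 172 and 144 at 24 h at chr2:151930450-151932651. It had 7777 reads over the 0 h libraries and 0 in G1E, and was at least 1296-fold higher at 0 h by the same floor. Golim4, a Golgi membrane protein, was at least 725-fold higher, Tm2d1 at least 562-fold and Gna12, a G protein subunit, at least 464-fold. Going the other way, Dnajc27 had 1152 reads in G1E and none at 0 h, a level at least 763-fold lower. Mpp7, a polarity scaffold protein, was at least 947-fold lower. Lincenc1, a non-coding RNA of embryonic stem cells, had 5510 reads in G1E and 1 at 0 h, a ratio of 11306 (95% counting interval 2028 to 446624). Wls, which escorts Wnt proteins, had 1773 reads and 1 read. Intervals and floors cover counting error only.

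Rpl22, a ribosomal protein gene, was another such member. Its element (chr4:151698500-151703251) held 0.202 and 0 CPM in G1E, 144, 149 and 203 at 0 h, 48.1 and 70.4 at 13 h, and 35.8 and 29.5 at 24 h. It was close to 0 in both G1E libraries and high at 0 h, and after estradiol it changed by -2.34 (adjusted p = 2.34e-05). Lfng, a Notch-modifying glycosyltransferase, held 0.0224 and 0 CPM in G1E, 27.7, 20.1 and 25.5 at 0 h, 1.59 and 1.1 at 13 h, and 0.455 and 0.279 at 24 h, so it was on at 0 h and low in both G1E and 24 h libraries. Srxn1, Golim4, Tm2d1 and Gna12 stayed on at 24 h, with 172, 34.2, 46.7 and 54.4 CPM in the first 24 h library, and Mpp7, Wls and Arhgap18 had no read in any 13 h or 24 h library. Single libraries moved the counts of this comparison: 257 members were higher and 148 lower without G1E replicate 1, and 251 higher without G1E replicate 2, the shallowest library.

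Each member that named 1 gene was next set beside the gene body of that gene. At 24 h, 1376 of 3502 gene bodies rose and 1122 fell, which was 71.3%, against 59.7% of all genes (29.0% rose and 30.7% fell). At 13 h 959 rose and 924 fell, against 41.0% of all genes called (20.1% and 20.9%), and from 13 h to 24 h 721 and 495, against 24.2% (11.7% and 12.5%). At 0 h against G1E 362 were higher and 348 lower, against 17.5% (7.88% and 9.58%). Without 13 h replicate 2 the 13 h to 24 h counts were 436 and 317, and without 24 h replicate 2 they were 347 and 215. At 0 h against G1E 230 were higher without G1E replicate 2 and 183 lower without G1E replicate 1. Over the 3511 members in the joint fit, element and gene body both rose in 1098 and both fell in 769. They were called in opposite directions in 27. The element alone was called in 356, the gene body alone in 613 and neither in 648. Pearson correlations of the changes across genes, which are not independent replicates, were 0.89 at 13 h, 0.90 at 24 h, 0.77 from 13 h to 24 h and 0.92 at 0 h against G1E. They describe values from the same libraries and share their depth, and element and body may also share reads. With total counts the gene-body split turned, to 979 higher and 1481 lower, and the median change of these gene bodies went from 0.13 to -0.26.

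In the joint test of element against gene body (edgeR, both counts of each gene in 1 model with the library as a block), 693 of the 3511 members changed more upward, or less downward, than their gene body at 24 h and 374 the reverse, which was 30.4%, against 34.3% of all 1-gene gene-start elements (20.9% above and 13.3% below). At 13 h the counts were 178 and 117 (8.40%, against 10.2%, of which 6.18% above and 4.03% below), from 13 h to 24 h 95 and 33 (3.65%, against 5.16%, of which 3.28% above and 1.89% below) and at 0 h against G1E 27 and 11 (1.08%, against 1.37%, of which 0.720% above and 0.649% below). With total counts the 24 h split was 1070 and 141. It was 329 and 198 without 24 h replicate 1, and 322 and 155 without 24 h replicate 2. At 13 h it was 57 and 53 without 0 h replicate 3, 42 and 33 without 13 h replicate 1 and 102 and 62 without 13 h replicate 2. From 13 h to 24 h it was 0 and 0 without 24 h replicate 2, 3 and 2 without 13 h replicate 2, 9 and 5 without 24 h replicate 1, and 63 members were above their body without either G1E replicate. At 0 h against G1E it was 7 and 3 without G1E replicate 1, 13 were above without G1E replicate 2, and 6 and 7 were below without 0 h replicates 2 and 3.

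**Figure D3:**
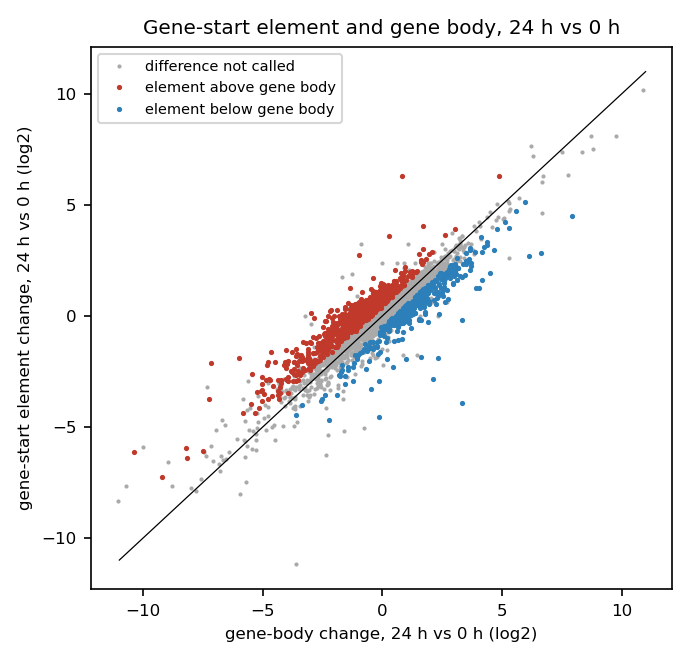
Change of the gene-start element (vertical) against change of the gene body (horizontal) at 24 h vs 0 h, both log2, for 3511 members that name 1 gene; the line marks equal change. Red points (693) lie above and blue points (374) below the line with a called difference, and most points follow the line.

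At some genes the body fell by more than the start. Mdn1 encodes midasin, the AAA protein that remodels large ribosomal subunits. Its element (chr4:32742450-32745301) held 46.6 and 45.8 CPM in G1E, 52.6, 71.3 and 62.2 at 0 h, 57.9 and 58.1 at 13 h, and 64.3 and 70.7 at 24 h. Its gene body went from 338 ± 50.5 CPM at 0 h (SD, n = 3) to 42.2 ± 11 at 24 h (SD, n = 2). The element changed by 0.12 (adjusted p = 0.599) and the body by -3.00 (adjusted p = 8.18e-06), a difference of 3.15 ± 0.26 (SE; adjusted p = 3.78e-05). Slc29a2, a nucleoside transporter, changed by -2.13 at its element and -7.18 in its body, where the level went from 18.1 ± 1.91 to 0.125 ± 0.107 CPM. The difference was 5.09 (adjusted p = 4.23e-05). Lyl1 kept 23.9 ± 7.11 CPM at its element at 24 h (SD, n = 2; 148 ± 27.3 at 0 h, n = 3), while its body went from 100.0 ± 5.78 to 2.27 ± 0.0709 CPM. The difference was 2.82 (adjusted p = 6.65e-05). At Fgf15 the element changed by -1.90 and the body by -6.00, and at Myb by -2.23 and -4.82.

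At others the element fell while the body rose, or rose where the body was not called. Uba1 encodes the main ubiquitin-activating enzyme. Its element (chrX:20234400-20236901) held 27.3 and 32.9 CPM in G1E, 26.4, 27.2 and 30.7 at 0 h, 12.9 and 15.6 at 13 h, and 7.27 and 7.29 at 24 h. The body went the other way, from 120.3 ± 8.67 CPM at 0 h (SD, n = 3) to 235 ± 15.2 at 24 h (SD, n = 2). The element changed by -1.95 and the body by 0.97 (adjusted p = 8.67e-05), a difference of -2.91 ± 0.21 (SE; adjusted p = 2.13e-05). Abcg2, a transporter that exports haem and porphyrins, changed by -1.84 at its element and by 1.63 in its body, with a difference of -3.34 (adjusted p = 7.46e-04). The call for the Abcg2 element itself was lost without 24 h replicate 2 (adjusted p = 0.146) and without 0 h replicate 1 (adjusted p = 0.0642). Within the libraries of neighbouring title numbers (0 h replicate 3 and both 24 h replicates, with G1E replicate 1), the element was at -0.95 (adjusted p = 0.273) and not called. Sema4b, a semaphorin, rose by 3.59 at its element while its body was at 0.25 (adjusted p = 0.458). The difference was 3.33 (adjusted p = 1.98e-04). The part of other starts of these genes was not tested.

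Sox6 showed the same kind of difference between the lines. It encodes a SoxD factor active in definitive red cells. Its element (chr7:123174400-123178101) held 0.135 and 0 CPM in G1E, 37.7, 27.8 and 18.8 at 0 h, 11.8 and 11.4 at 13 h, and 6.26 and 3.91 at 24 h. G1E was at or near 0, yet the gene body held 111 ± 3.68 CPM in G1E (SD, n = 2) and 77.6 ± 9.17 at 0 h (SD, n = 3). The difference between element and body was 8.63 ± 0.44 (SE; adjusted p = 5.68e-06) at 0 h against G1E. Camk1d, a calcium-dependent kinase, and Pkig, an inhibitor of protein kinase A, had differences of 5.91 (adjusted p = 1.26e-05) and 5.88 (adjusted p = 1.18e-07). Atp2c1, a Golgi calcium pump, was the reverse at its element at chr9:105421800-105425951, with -4.71 (adjusted p = 1.31e-04). That element held a mean of 18.5 CPM in G1E and 0.679 at 0 h. The stronger element of the gene, at chr9:105396650-105399101, held 51.8 and 67.0 CPM. Its difference from the body was 0.39 (adjusted p = 0.425) and was not called.

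Element and body were also set side by side within the functional lists, with no test between lists. Over all members in this fit, 19.7% were called above their body and 10.7% below. For ribosome assembly, 12 of 22 members fell at 24 h with a median of -0.91, and 36 of 37 gene bodies of the list fell with a median of -2.15. Of its 7 members that named 1 gene, 5 changed less downward than their body and none the reverse (medians -0.91 for elements and -2.12 for bodies). For DNA replication the medians were -0.51 over members and -0.83 over bodies, and 2 of 13 such members were called above their body. Of autophagy genes, 4 of 10 elements were called below their body and none above (medians 0.69 and 1.37). For red cell membrane genes, 4 of 18 were called below and 1 above, and for genes named Zfp 6 of 30 below and 1 above. Stem and progenitor regulators had 4 of 7 above. Calls against the body within lists were not recounted with another scaling, and over all members that split moved with total counts, as given above. In other lists the bodies at 24 h covered all tested genes of the list, more genes than the members did. Respiratory chain bodies had 14 of 50 higher and 12 lower (median -0.03, against 0.42 over members). Over its 11 members that named 1 gene, the medians were 0.24 for elements and 0.25 for bodies. The proteasome had 9 of 31 higher and 6 lower (median 0.15), and the polymerase list 15 of 41 higher and 12 lower (median 0.13). For 7 proteasome members that named 1 gene, the medians of elements and bodies were 0.33 and -0.04. For 5 of the polymerase list they were 1.23 and 0.11. With total counts these body splits turned, to 5 higher and 14 lower for the proteasome and 8 and 17 for the polymerase list. The respiratory chain then had 9 bodies higher and 25 lower. Splicing had 6 of 29 bodies higher and 17 lower (median -0.48). Over its 7 members that named 1 gene, the medians were -0.07 for elements and -0.22 for bodies. Immediate early genes had 3 of 14 higher and 6 lower (median -0.59). Their 5 members that named 1 gene had medians of 0.48 for elements and -0.86 for bodies. The splits of splicing and immediate early bodies kept their direction with total counts.

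Head-to-head members hold the starts of 2 genes in 1 count. In 690 members the minus-strand start lay left of the plus-strand start, with a median distance of 184 bases. In 639 of those the element named exactly 2 genes, both with tested gene bodies. This comparison of the 2 bodies was chosen after the data had been seen. At 24 h both bodies rose in 142 pairs and both fell in 88. They were called in opposite directions in 68, only 1 was called in 251 and neither in 90. These directions depend on the scaling of gene bodies, whose split turned with total counts as given above. The pairs were not recounted by direction with another scaling or with a library left out. No other gene pairs were counted beside them. The difference between the 2 changes was itself called in 390 pairs (61.0%), or in 302 to 395 with any 1 library left out. At 13 h it was called in 245 pairs (38.3%), or 151 without 13 h replicate 1, from 13 h to 24 h in 178 (27.9%), or 33 without 24 h replicate 2, 103 without 13 h replicate 2 and 115 without 24 h replicate 1. At 0 h against G1E it was called in 25 (3.91%), or 8 without G1E replicate 1, 11 without G1E replicate 2, 15 without 0 h replicate 2 and 9 without 0 h replicate 3. Where both bodies rose, the shared element rose in 126 of 142 pairs (median 1.10). Where both fell, it fell in 62 of 88 (median -0.91). In the 68 opposite pairs the element was not called in 49, rose in 16 and fell in 3, with a median of 0.17. In most pairs with a rising and a falling body, the summed element was thus not called.

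**Figure D4:**
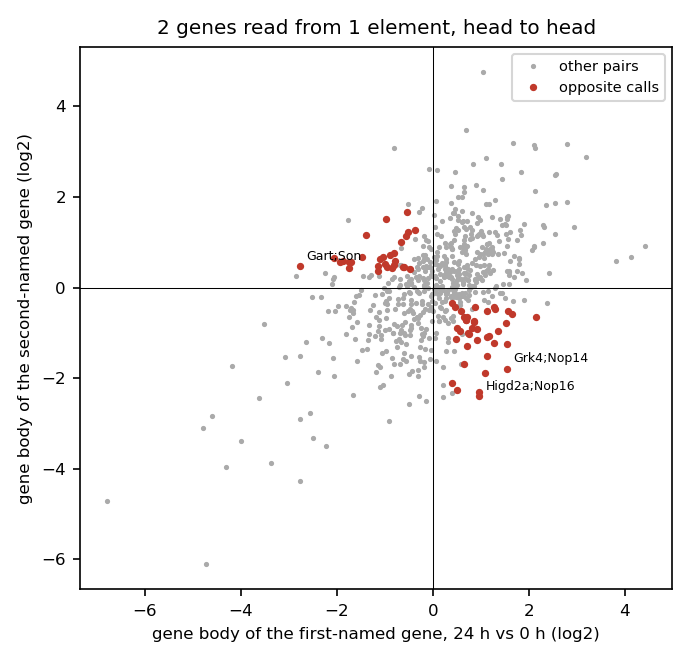
Gene-body changes at 24 h vs 0 h (log2) of the 2 genes of 639 head-to-head pairs, first-named gene on the horizontal axis and second-named gene on the vertical axis. The 68 pairs called in opposite directions (red) lie in the upper left and lower right of the plot, and the 3 with the largest difference are named.

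The pair Grk4 and Nop14 showed this at a promoter whose starts lie 231 bases apart (chr5:35001050-35004351, mm9). Grk4 encodes a kinase of G protein-coupled receptors and Nop14 a nucleolar factor of the small ribosomal subunit. The element held 46.1 and 37.3 CPM in G1E, 47.5, 63 and 45.7 at 0 h, 52.3 and 58.4 at 13 h, and 56.9 and 52.4 at 24 h. Its 0 h libraries spanned the values at 24 h. The Grk4 body held 11.7 and 13.9 CPM in G1E, 14.8, 12 and 14.2 at 0 h, 28.9 and 22 at 13 h, and 34 and 45.3 at 24 h, and the Nop14 body 95.1 and 107 CPM in G1E, 88.4, 105 and 116 at 0 h, 45.1 and 56.2 at 13 h, and 32.7 and 27.2 at 24 h. Treated libraries were above all untreated ones for Grk4 and below all of them for Nop14. The changes at 24 h were 1.54 ± 0.20 (SE; adjusted p = 9.41e-05) for Grk4 and -1.79 ± 0.18 (SE; adjusted p = 1.72e-05) for Nop14. The element changed by 0.07 ± 0.20 (SE; adjusted p = 0.789), and the difference between the bodies was 3.31 ± 0.27 (SE; adjusted p = 1.52e-06).

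Nop16, another nucleolar protein gene, starts 157 bases from Higd2a, which encodes a respiratory complex assembly factor (chr13:54690400-54693401). The Nop16 body held 23.2 and 26.8 CPM in G1E, 24.6, 21.6 and 27.2 at 0 h, 9.86 and 10.8 at 13 h, and 5.71 and 3.6 at 24 h, and the Higd2a body 3.75 and 1.93 CPM in G1E, 6.61, 4.17 and 3.29 at 0 h, 8.64 and 7.26 at 13 h, and 10.1 and 8.23 at 24 h. The changes were -2.39 ± 0.24 (SE; adjusted p = 2.00e-05) for Nop16 and 0.97 ± 0.36 (SE; adjusted p = 0.0376) for Higd2a, with -0.43 ± 0.18 (SE; adjusted p = 0.0574) at the element. The Higd2a call was lost without 0 h replicate 2 or 3 and without 24 h replicate 1 or 2, each left out alone (adjusted p = 0.0929, 0.115, 0.166 and 0.0663), and with total counts (0.203). The difference between the bodies, 3.44 ± 0.40 (SE; adjusted p = 1.54e-05), was called in each of the fits that left out 1 library.

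Gart, a trifunctional enzyme of purine synthesis, and Son, a splicing-associated nuclear speckle protein, start 852 bases apart (chr16:91645000-91650451). The element held 288 and 319 CPM in G1E, 281, 373 and 275 at 0 h, 292 and 317 at 13 h, and 348 and 366 at 24 h. The Gart body held 303 and 393 CPM in G1E, 256, 258 and 308 at 0 h, 67.7 and 103 at 13 h, and 41.9 and 39.1 at 24 h, and changed by -2.76 ± 0.21 (SE; adjusted p = 3.56e-06). For Son the change was 0.47 ± 0.13 (SE; adjusted p = 0.0109). It was not called without 24 h replicate 2 (adjusted p = 0.103), with total counts (0.672) or with the replicate number as a block (0.0645). At the starts of Sf3a1, a splicing factor, and Ccdc157, 61 bases apart, Ccdc157 rose by 2.16 and Sf3a1 changed by -0.64. Skp2, which targets the cell cycle inhibitor p27 for degradation, changed by -2.25, and its neighbour Lmbrd2 by 0.50. The Lmbrd2 call was lost without 24 h replicate 2 (adjusted p = 0.0969) and with total counts (0.544). Atp6v1a, a subunit of the vacuolar proton pump, rose by 1.08 beside Naa50, an N-terminal acetyltransferase, at -1.89. Their element was at -0.80 ± 0.28 (SE; adjusted p = 0.0254). That call was lost with gene-body scaling (adjusted p = 0.0838), without G1E replicate 2 (0.0811), without 0 h replicate 2 (0.101) and without 24 h replicate 1 or 2 (0.0561 and 0.314).

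Of the genes named by 1-gene members, 27 had more than 1 member, so that alternative starts of 1 gene can be followed apart. Lmo2, the bridging protein of the erythroid GATA1 and TAL1 complex, had 2. The element at chr2:103796500-103799401 held 17.8 and 13.8 CPM in G1E, 23.1, 14.8 and 14.9 at 0 h, 94.5 and 56.9 at 13 h, and 14.2 and 17.3 at 24 h. It was high at 13 h among the groups, with changes of 2.10 (adjusted p = 6.45e-05) at 13 h and -2.27 (adjusted p = 0.00136) from 13 h to 24 h. The element at chr2:103808100-103813601 held 226 and 127 CPM in G1E, 119.6, 166 and 174 at 0 h, 338 and 339 at 13 h, and 410.0 and 393 at 24 h. It rose by 1.14 at 13 h and 1.39 (adjusted p = 3.15e-04) at 24 h. The Lmo2 gene body rose by 0.89 at 24 h. The difference between the 2 elements of a gene was not tested, for this or the next genes.

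Hdac7, a class IIa histone deacetylase, fell at both starts. The element at chr15:97671800-97675901 held 84 and 59.8 CPM in G1E, 62.6, 46.8 and 87.9 at 0 h, 51.1 and 50 at 13 h, and 3.66 and 2.3 at 24 h. From 13 h to 24 h it changed by -4.08 (adjusted p = 6.79e-05). The one at chr15:97660450-97662901 held 29.5 and 22.9 CPM in G1E, 25.3, 31.3 and 32.8 at 0 h, 17 and 18.6 at 13 h, and 8.69 and 12.7 at 24 h, a change of -1.48 (adjusted p = 3.21e-04) at 24 h against 0 h. Ppp2r5c, a regulatory subunit of protein phosphatase 2A, fell at the start at chr12:111684350-111686301, which held 56.1 and 49.3 CPM in G1E, 63.6, 60 and 49.1 at 0 h, 15.2 and 17.9 at 13 h, and 18.4 and 11.9 at 24 h. The change at 24 h was -1.93 (adjusted p = 2.26e-05). Its other start, at chr12:111722000-111724951, was at 0.28 (adjusted p = 0.207) and its gene body at 0.18 (adjusted p = 0.276). Tnpo1, a nuclear import receptor, changed by -1.13 (adjusted p = 2.21e-04) at chr13:99659000-99661751 and by 0.57 (adjusted p = 0.0125) at chr13:99694850-99697801. The rise was not called without 0 h replicate 3 (adjusted p = 0.068) or with total counts (0.0857). Both starts of Nfe2, an erythroid and megakaryocyte transcription factor, rose at 24 h, by 1.62 and 1.37.

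**Figure D5:**
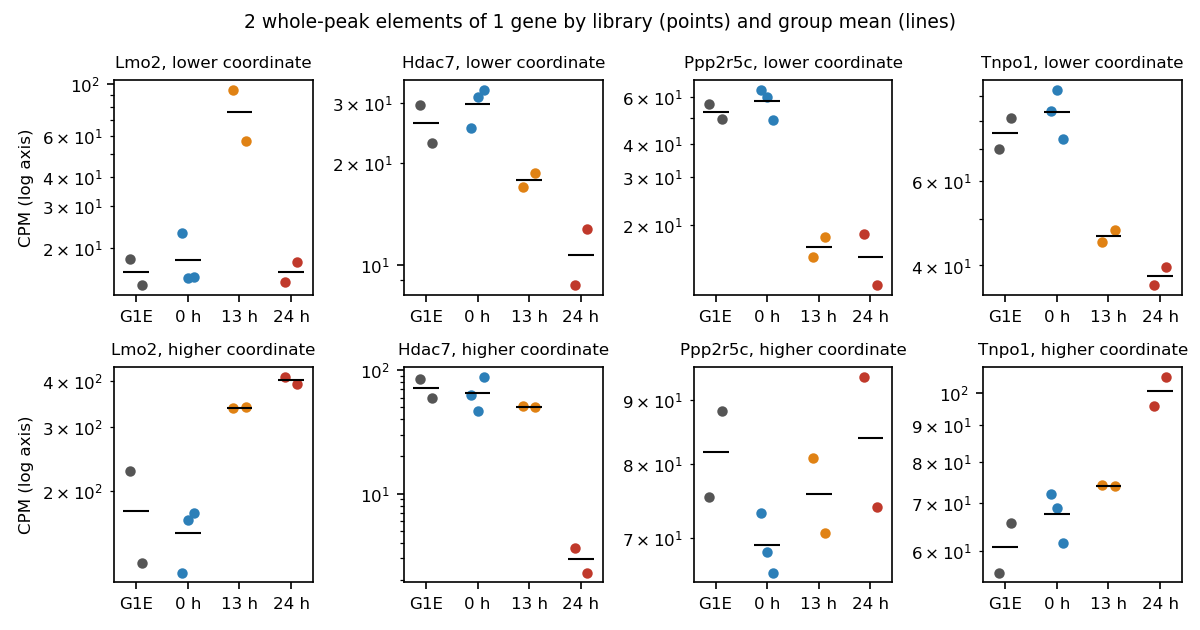
Level of 2 whole-peak elements of each of Lmo2, Hdac7, Ppp2r5c and Tnpo1 in each library (points; CPM on a log axis, a separate range in each panel) with the group mean (line), the element with the lower mm9 coordinate above the other. The upper Lmo2 panel is highest at 13 h, at 56.9 and 94.5 CPM, whereas the lower one is highest at 24 h, at 393 and 410.0 CPM.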

How the data were processed

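PRO-seq reads of 9 libraries had been aligned with BWA to mm9, per the submitters' processing notes. The authors deposited raw read counts per dREG peak, or per strand of a peak, and raw read counts per gene body. No source used here gives versions, the annotation, the part or strand of a gene counted as body or how libraries were combined for peak calling. The position along a gene, which the authors deposited as a percent, was not analysed.

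All 35158 elements and 13825 genes that passed edgeR's filterByExpr were tested with edgeR 4.0.16 (R 4.3.3; TMM, robust quasi-likelihood, 4 group means, 5 residual degrees of freedom), with Benjamini-Hochberg adjustment over each whole table and a threshold of 0.05. CPM are TMM-scaled. Standard errors are the log2 change over the square root of F. Element and gene body were compared in 1 edgeR model with the library as a block. The fits were run on simulated counts with 200 changed elements. Every simulated element had the same spread, and element and body shared no reads, so the real spread and shared reads were not covered. Alternatives were DESeq2 1.42.0, limma 3.58.1 on log2 ratios (pseudocount 0.5 CPM), total counts, gene-body scaling, other filters, a replicate block, only the 2 groups compared, and each library left out.

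Named genes were the 8 largest increases and decreases in each comparison, the 5 largest differences from the gene body each way (mean of at least 50 reads, no overlap between groups, no predicted or clone names), up to 4 per list, the 8 highest levels, and a set of lineage genes. The members and lists were chosen with earlier results of these data known. Head-to-head pairs and genes with more than 1 member were chosen after their values were seen. The sequences are from RefSeq's GRCm38.p6 promoters.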

Additional observations from a re-analysis of the deposited data

How the results depend on the processing

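Of the values of single genes under the alternatives, 7278 kept direction and side of the threshold, 369 lost the call, 41 gained one and 3 reversed. Those were the Slc4a1 element at 0 h against G1E, at 0.029 without G1E replicate 1 (-2.30 to 0.029 with 1 library left out), and the Lincenc1 element against its body, at 1.27 with limma and 1.10 with limma and a replicate block. The cause was not tested. With gene-body scaling 460 members fell at 13 h, and 90 rose and 185 fell from 13 h to 24 h, where 131 rose with total counts. For gene bodies from 13 h to 24 h, 315 rose and 822 fell with total counts, and 413 and 228 with only the 2 groups in the fit. For element against body, total counts gave 50 below at 13 h, 1070 above and 141 below at 24 h, and 13 below from 13 h to 24 h. Limma gave 67 and 45 at 0 h against G1E, and with the replicate block 51 and 30, and 66 and 58 at 13 h. With any 1 library left out, the counts of members that rose and fell were 776 to 1139 and 490 to 805 at 13 h, 1462 to 2029 and 681 to 1095 at 24 h, 82 to 558 and 55 to 362 from 13 h to 24 h, and 251 to 502 and 148 to 338 at 0 h against G1E. Gene bodies gave, in that order, 747 to 978 and 632 to 938, 1236 to 1429 and 971 to 1130, 347 to 717 and 215 to 495, and 230 to 375 and 183 to 400. Element against body gave 42 to 206 and 33 to 110, 322 to 697 and 155 to 379, 0 to 112 and 0 to 45, and 7 to 29 and 3 to 14. Differences within head-to-head pairs numbered 151 to 260, 302 to 395, 33 to 192 and 8 to 28. With the replicate block 911 members rose and 795 fell at 13 h, 1740 and 1123 at 24 h, 600 and 363 from 13 h to 24 h, and 532 and 294 at 0 h against G1E. Same-numbered 0 h and 13 h libraries have neighbouring title numbers and deviated together (r = 0.54 for replicate 1 and for replicate 2). The 2 values are not independent, because the deviations of 2 libraries from their mean are mirror images. They are a hint of pairing that these 2 pairs do not settle. A fit within these 4 libraries with the block gave 1435 rising and 1108 falling members at 13 h. The 24 h libraries have no title numbers near those at 13 h, so r = -0.09 between them says nothing of that pairing. The labels do not say what these numbers stand for. In the direct comparison of 24 h with 13 h, time thus cannot be told apart from a difference between these sets of libraries. Within the libraries numbered near those at 24 h, 1816 rose and 935 fell at 24 h. With 2 or 3 libraries a group, the smallest changes of shallow members are not detectable at this depth.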

Other observations

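The highest levels among the members were at replication-dependent histone genes, which lie in clusters and are transcribed in S phase. The element naming Hist1h2ad, Hist1h2ae, Hist1h2bf, Hist1h2bg and Hist1h3d held 3449.5 and 3093 CPM in G1E, 2242, 5076 and 5487 at 0 h, 3822 and 6449 at 13 h, and 4438 and 7588 at 24 h. The values at 0 h, 13 h and 24 h overlapped, and the change at 24 h against 0 h was 0.49 (edgeR, adjusted p = 0.286). The element naming Hist1h1a, Hist1h3a, Hist1h4a and Hist1h4b was at -0.62 (adjusted p = 0.154), or at -0.93 (adjusted p = 0.0101) without 0 h replicate 1. The 6 tested members of the histone list had a median of -0.09 at 24 h, or 0.02 with gene-body scaling, and that of the DNA replication list was -0.51. Members of these clusters name several near-identical genes, so reads may have been shared among them.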
